A study of Arabidopsis thaliana with 12 samples.

Results

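The transcriptome of seedlings of the Arabidopsis thaliana line cbfs-1 was compared between 24 h and 3 h of cold. The members were all genes of the deposited table with a normalized read count of at least 10 in at least 2 of the 4 libraries compared, which were 20170 of its 24616 genes. The limit cut through a continuous range of low genes: 116 members had a second-highest value from 10 to 11, and 162 genes just outside had one from 9 to 10. The seedlings were 14 days old, had been grown at 22 °C on 1/2 MS medium in long days, and were then kept at 4 °C. The groups compared were cbfs-1 after 3 h and cbfs-1 after 24 h at 4 °C. Further groups used beside them were cbfs-1 before cold (0 h) and wild type Col at 0 h, 3 h and 24 h, with 2 libraries in each of the 6 groups. The labels name the line after the CBF genes and say nothing of the lesion it carries.

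CBF1, CBF2 and CBF3 encode AP2/ERF transcription factors that are induced within hours of cold and bind the CRT/DRE element of cold-regulated (COR) genes, whose products protect membranes and proteins during freezing. Other branches of the cold response, such as rapid zinc finger and WRKY factors, the circadian clock, ribosome assembly and flavonoid synthesis, run in parallel with the CBF pathway. Early cold brings a burst of transcription factors, calcium sensors and touch genes, and later cold brings protective proteins, sugars and an adjusted translation apparatus.

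The 4 libraries held 17604977 to 21057683 recovered reads, and the 12 held 16849042 to 22800552. A floor of 3 reads corresponded to normalized values of 2.46 to 3.28, so a value under the floor is given as a level and no fold is drawn from it. Replicates correlated across genes at r = 0.987 in cbfs-1 at 3 h and r = 0.991 at 24 h on the log2 scale. Whether the replicates were separate cultures is not stated in the labels, and the p-values cover no more than the spread of these libraries, which could be technical. Whole seedlings were used, in which fewer cells of a type and less RNA per cell cannot be told apart. No seedlings kept at 22 °C for the same hours were analysed here and the labels give no time of day, so cold duration and time of day cannot be told apart. Changes are differences of log2(value + 1), 24 h minus 3 h, which understate the change of low genes, and folds are ratios of group means. Adjusted p-values are from limma with Benjamini-Hochberg adjustment over the 20666 genes fitted, and a gene was called at an adjusted p below 0.05.

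Late cold differed from early cold across much of the transcriptome of the line. Of 20170 members, 4390 rose (21.8%) and 4366 fell (21.6%), so 43.4% were called in all and 11414 did not pass. Calls of at least 2-fold numbered 1171 higher (5.81%) and 1657 lower (8.22%), and those of at least 8-fold numbered 26 higher and 103 lower. The median log2 change over all members was -0.0056. A total of 118 members stood at 10 or more in both 24 h libraries and below 10 in both 3 h libraries, of which 74 were called. The reverse held for 375 members, of which 260 were called. Genes of either kind were members through the values of 1 time alone. The median distance from a change to either end of its 95% interval was 0.36 on the log2 scale, and the smallest change called was 0.19. The share called was 35.4% in the lowest of 4 equal bins of mean level and 51.9% in the highest. The number of rises fell to 2879 without cbfs-1 3 h replicate 1, to 2811 without cbfs-1 24 h replicate 1 and to 2849 without cbfs-1 24 h replicate 2.

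**Figure D1:**
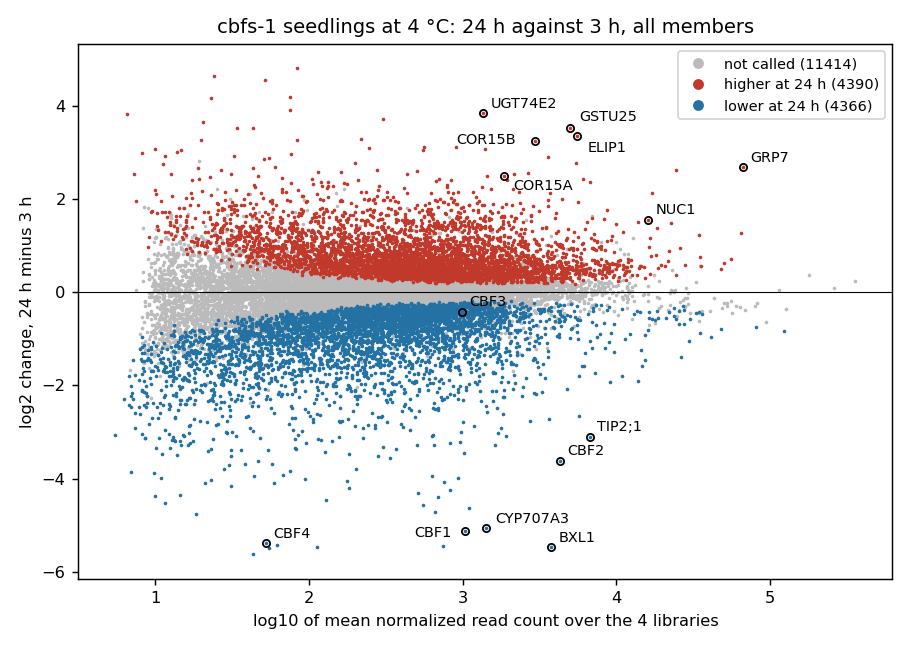
Log2 change between 3 h and 24 h at 4 °C in cbfs-1 (vertical axis) against the log10 of the mean normalized read count over the 4 libraries (horizontal axis), 1 point per member. The 4390 members called higher are red, the 4366 called lower are blue and the 11414 not called are grey; CBF1 lies near -5.13 and CBF3 near -0.41.

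The CBF genes themselves separated. CBF1 (AT4G25490) stood at 1.03 and 1.89 before cold, at 1540.4 and 2475 at 3 h and at 78.7 and 38.1 at 24 h. Both 24 h libraries were far below both 3 h libraries, a 34.4-fold fall (log2 change -5.13, SE 0.55, limma adjusted p = 0.000154). CBF2 (AT4G25470) stood at 7569.9 and 8377 at 3 h and at 941 and 448 at 24 h, 11.5-fold lower (log2 change -3.61, SE 0.95, limma adjusted p = 0.0131). The groups did not overlap, but the call for CBF2 was lost without any 1 of cbfs-1 3 h replicate 1 (-3.69), cbfs-1 3 h replicate 2 (-3.54) and cbfs-1 24 h replicate 2 (-3.08). CBF3 (AT4G25480) was the family member that did not pass, at 1158 and 1095 at 3 h and 893 and 799 at 24 h (log2 change -0.41, SE 0.36, limma adjusted p = 0.382). Its 24 h libraries were lower than its 3 h libraries by more than 1 standard error, but the 95% interval of the change ran from -1.23 to 0.40. When the 4 libraries were fitted alone, the same difference of -0.41 was called. CBF4 (AT5G51990), known for its induction by drought, was listed at 0 in both 0 h libraries, stood at 63.0 and 143 at 3 h and at 4.31 and 0 at 24 h. DDF1, a relative that delays flowering and dwarfs plants when overexpressed, stood at 15.7 and 27.3 at 3 h and 0 and 0.906 at 24 h. Both fell under the test (limma adjusted p = 0.00116 and 0.00112), with 24 h values about the floor. In all, 4 of 5 CBF family members fell and 0 rose, and CBF4 and DDF1 were members through their 3 h values alone. CBF1, CBF2 and CBF3 are close paralogs side by side on 1 chromosome, so how reads were divided among them is uncertain. Nor do the labels give the lesion of the line, and whether these reads came from intact CBF genes was not tested.

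The stretch before the CBF2 gene start is shown because CAMTA factors, which read calcium signals, are known to activate this gene in the cold. It comes from RefSeq's TAIR10.1 assembly (chr4:13016285-13016329, minus strand), and capitals mark the CAMTA core CGCGT, sought on both strands. That core was present in the 300 bases before the gene start in 8.41% of 20072 members.
CBF2: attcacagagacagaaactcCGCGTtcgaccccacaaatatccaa

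Of 16 regulators of the CBF genes, 3 were called higher, 8 lower and 5 neither, with a median log2 change of -0.28. The share higher was near the 21.8% of all members, of which 21.6% were lower. With 1 library left out, the 3 rises became 1 without cbfs-1 3 h replicate 2, and the 8 falls became 4 without cbfs-1 3 h replicate 1 or cbfs-1 24 h replicate 1 and 5 without cbfs-1 24 h replicate 2. PIF4, a light- and temperature-responsive bHLH factor that represses CBF genes, stood at 1543 and 1225 at 3 h and 389 and 299 at 24 h (log2 change -2.01, SE 0.25, limma adjusted p = 0.000338). PIF3, of the same family, went from 328 and 272 to 157 and 138 (log2 change -1.01, SE 0.22). In both genes each 24 h library lay below each 3 h library. PIF7, also of that family, moved the other way, from 458 and 494 to 737 and 693 (log2 change 0.59, SE 0.12). CAMTA1 fell by 0.52 (SE 0.10), and the kinase gene MPK6 by 0.40 (SE 0.08). OST1, whose kinase phosphorylates ICE1, rose by 0.41 (SE 0.12), a call lost without cbfs-1 3 h replicate 1 (0.43), cbfs-1 3 h replicate 2 (0.38) and cbfs-1 24 h replicate 2 (0.35). ICE1, the bHLH activator of CBF3, was at 1323 and 1441 at 3 h and 1521 and 1587 at 24 h and did not pass (log2 change 0.17, SE 0.08, limma adjusted p = 0.115), nor did the ubiquitin ligase gene HOS1 (log2 change 0.15, SE 0.10, limma adjusted p = 0.238). MYB15, a repressor of CBF genes, stood at 46.3 and 33.0 at 3 h and 97.0 and 61.6 at 24 h (log2 change 0.97, SE 0.31). That rise was lost without cbfs-1 3 h replicate 2 (0.73) and cbfs-1 24 h replicate 1 (0.64).

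The COR genes moved opposite to the CBF genes. Of 14 cold-regulated effector genes, 10 were called higher, 0 lower and 4 neither, with a median log2 change of 1.5. COR15A (AT2G42540), whose product stabilizes chloroplast membranes, stood at 222 and 83.3 before cold, at 592 and 538 at 3 h and at 3273 and 3092 at 24 h. Both 24 h libraries exceeded both 3 h libraries, a 5.63-fold rise (log2 change 2.49, SE 0.38, limma adjusted p = 0.000886). Its neighbour COR15B rose 9.33-fold, from 699 and 454 to 5253 and 5499.6 (log2 change 3.25, SE 0.37). KIN2, a small cryoprotective protein, went from 1404 and 1379 to 9369 and 9594 (log2 change 2.77, SE 0.11), and its relative KIN1 from 246 and 222 to 1055 and 988 (log2 change 2.12, SE 0.16). RD29A, a hydrophilic protein gene widely used as a stress reporter, went from 2201 and 1619.8 to 11588 and 9031 (log2 change 2.44, SE 0.31). For each of these genes the 2 groups were apart. That was so for all 14 effector genes, those that did not pass included, and for 13 of 17 abscisic acid genes, of which 4 were called. With 2 libraries per group, groups apart are thus weak evidence of a change, here and below. The share of all members with groups apart is not given here. COR15A and COR15B, and KIN1 and KIN2, are similar neighbours, so their counts may share reads.

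Among the dehydrin genes, whose products bind membranes and water, XERO2 and ERD10 rose. XERO2 went from 1092 and 1107 to 4499 and 3239 (log2 change 1.80, SE 0.27) and ERD10 from 11158 and 10752 to 26568 and 17236 (log2 change 0.97, SE 0.27), where the ERD10 call was lost without cbfs-1 3 h replicate 1 (0.99), cbfs-1 3 h replicate 2 (0.94) and cbfs-1 24 h replicate 1 (0.65). COR47 stood at 15888 and 14493 at 3 h and 23071 and 16538 at 24 h and did not pass (log2 change 0.36, SE 0.25, limma adjusted p = 0.258). GOLS3, which makes galactinol for raffinose synthesis, rose from 159 and 161 to 482 and 388 (log2 change 1.43, SE 0.42), a call lost without any 1 of cbfs-1 3 h replicate 1 (1.42), cbfs-1 3 h replicate 2 (1.43), cbfs-1 24 h replicate 1 (1.27) and cbfs-1 24 h replicate 2 (1.58). RAP2.1, an AP2 repressor that itself lies downstream of CBF factors, rose from 29.5 and 36.8 to 89.5 and 111 (log2 change 1.57, SE 0.25) after standing at 68.3 and 73.8 before cold. Its 3 h libraries were thus the lowest of the 6 libraries of the line. The membrane protein gene COR413-PM1 rose by 0.80 (SE 0.22), lost without cbfs-1 3 h replicate 2 (0.64) and cbfs-1 24 h replicate 1 (0.71), while COR414-TM1 (log2 change 1.28, SE 0.55, limma adjusted p = 0.0891), ERD7 (log2 change -0.78, SE 0.36, limma adjusted p = 0.113) and RD29B (log2 change -0.55, SE 0.86, limma adjusted p = 0.634) did not pass.

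The stretches before COR15A and RD29A are shown because they carry repeats of the CRT/DRE core, to which CBF factors bind. Capitals mark CCGAC or its reverse complement, and both stretches are from TAIR10.1, COR15A at chr2:17712385-17712492, minus strand and RD29A at chr5:21240557-21240708, plus strand. The core was found in the 300 bases before 9 of the 14 effector genes and before 14.8% of all members.
COR15A: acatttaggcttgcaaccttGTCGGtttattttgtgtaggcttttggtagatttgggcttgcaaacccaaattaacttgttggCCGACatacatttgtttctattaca
RD29A: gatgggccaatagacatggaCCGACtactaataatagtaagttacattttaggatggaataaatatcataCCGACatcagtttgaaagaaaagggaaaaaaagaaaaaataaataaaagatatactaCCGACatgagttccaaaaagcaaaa

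**Figure D2:**
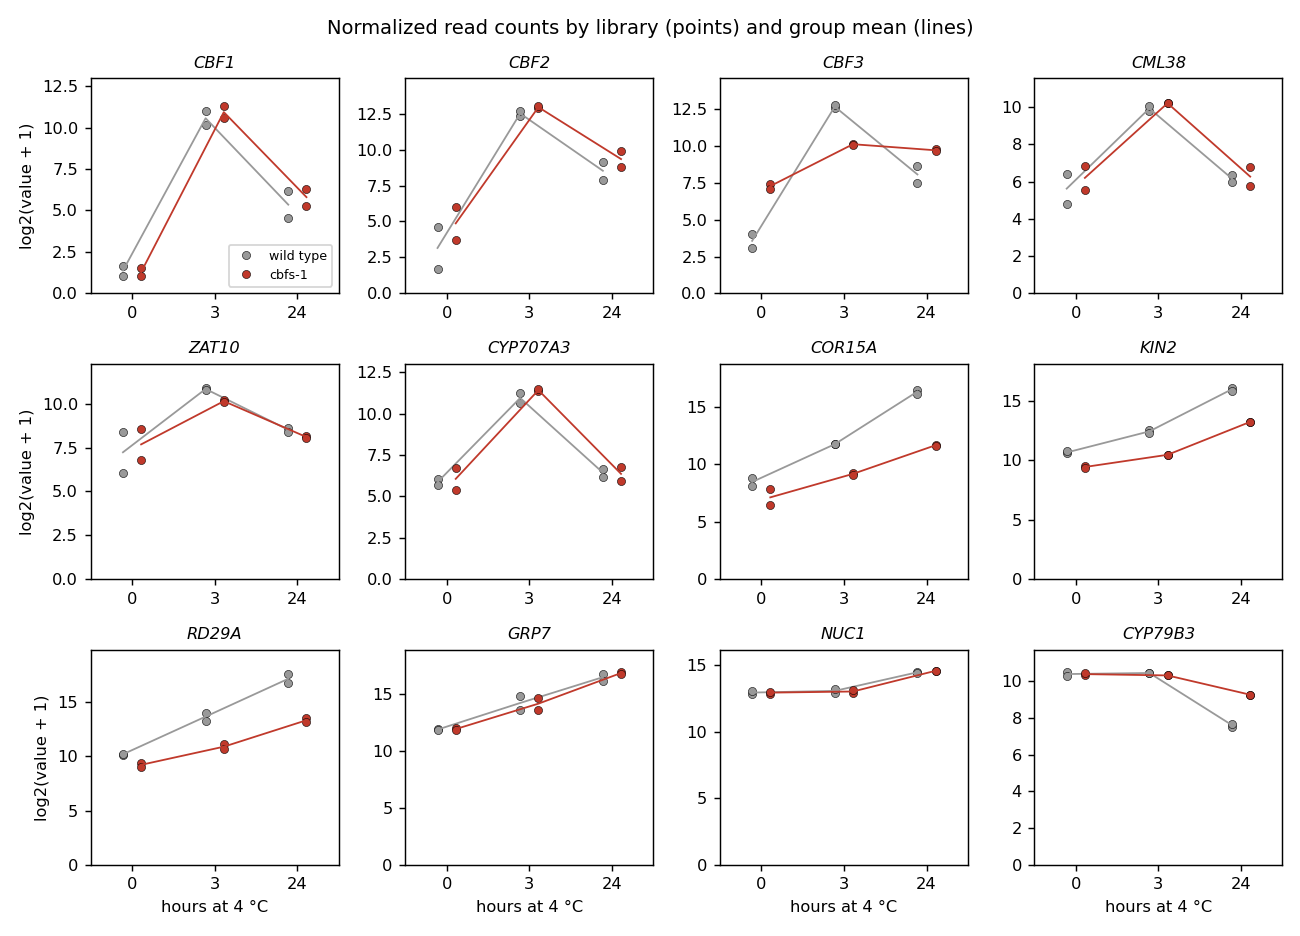
Normalized read counts on the log2(value + 1) scale by hours at 4 °C for 12 genes, 1 point per library (2 per group), with lines through the group means; wild type is grey and cbfs-1 is red. In cbfs-1, CBF1 goes from 1540.4 and 2475 at 3 h to 78.7 and 38.1 at 24 h, while COR15A goes from 592 and 538 to 3273 and 3092.

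The largest rises by log2 change, among called members whose higher group averaged 100 or more and whose groups were apart, were led by AT5G66780, a late embryogenesis abundant protein gene. It stood at 5.91 and 3.77 at 3 h and 197 and 129 at 24 h (log2 change 4.80, SE 0.49, limma adjusted p = 0.000121). Next by size were the uncharacterized AT5G24640, with 24 h values of 134 and 68.0 and 3 h values of 1.97 and 4.71 about the floor (limma adjusted p = 0.000326), and UGT78D3, a flavonol arabinosyltransferase gene. UGT78D3 went from 4.92 and 9.43 to 164 and 124 (log2 change 4.19, SE 0.93). AT5G66780, AT5G24640 and UGT78D3 were members through their 24 h values alone. The uncharacterized AT4G12735 stood at 3.94 and 15.1 at 3 h and 189 and 94.2 at 24 h (log2 change 3.91, SE 1.04), and its call was lost without cbfs-1 3 h replicate 1 (3.06) and cbfs-1 24 h replicate 1 (3.42). UGT74E2, which glycosylates the auxin precursor indole-3-butyric acid, rose 14.6-fold, from 166 and 183 to 2955 and 2137 (log2 change 3.84, SE 0.17). The glutathione transferase gene GSTU25 rose 11.5-fold, from 832 and 759 to 9752 and 8616 (log2 change 3.53, SE 0.15), and a close neighbour, GSTU24, may share its reads. AT2G04050, a MATE-type exporter gene, went from 45.3 and 34.9 to 419 and 379.6 (log2 change 3.29, SE 0.29). The others were AT2G41730 (log2 change 3.71, SE 0.38), the light-stress gene ELIP1 (log2 change 3.35, SE 0.50) and the uncharacterized AT2G38823 (log2 change 3.26, SE 0.35).

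The largest falls were led by AT1G33760, annotated with an AP2-type DNA-binding domain, which went from 72.8 and 143 to 4.31 and 0 (limma adjusted p = 0.00139), values at 24 h about the floor. BXL1, a beta-xylosidase that trims cell wall polysaccharides, stood at 3225 and 2856 before cold, at 6272 and 8458 at 3 h and at 127 and 209 at 24 h. That was a 43.8-fold fall (log2 change -5.47, SE 0.27, limma adjusted p = 4.19e-06), to below the level before cold. AT4G27450, annotated as an aluminium-induced protein with YGL and LRDR motifs, fell 44.1-fold, from 1345 and 1562 to 38.8 and 27.2 (log2 change -5.44, SE 0.23). CYP707A3, whose enzyme inactivates abscisic acid, fell 32.6-fold, from 2605 and 2917 to 109 and 60.7 (log2 change -5.07, SE 0.41), after 103 and 41.6 before cold. The zinc finger gene AT5G22920 went from 853 and 1695 to 43.1 and 47.1 (log2 change -4.71, SE 0.30) and GASA6, a gibberellin-regulated peptide gene, from 2891 and 1373 to 65.7 and 96.0 (log2 change -4.63, SE 0.63). AT4G39675 went from 156 and 289 to 2.16 and 6.34 and AT2G29300, an oxidoreductase family gene, from 102 and 143 to 3.23 and 0.906, near the floor at 24 h. CBF4 and CBF1 completed this set of 10. AT1G33760, AT4G39675, AT2G29300 and CBF4 were members through their 3 h values alone.

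Early stress genes were in part lower at 24 h. Of 17 rapid stress transcription factor genes, 9 fell, 0 rose and 8 were not called (median -0.89), and of 9 touch and calcium sensor genes 0 were called higher, 7 lower and 2 neither (median -1.99). The count of transcription factors rested on single libraries: the 9 falls became 2 without cbfs-1 3 h replicate 1, 4 without cbfs-1 3 h replicate 2, 5 without cbfs-1 24 h replicate 1 and 1 without cbfs-1 24 h replicate 2. Among the sensors, the 0 rises became 1 without cbfs-1 24 h replicate 2 or in a fit of the 4 libraries alone. CML38, a calmodulin-like protein, stood at 113 and 46.4 before cold, 1175 and 1192 at 3 h and 108 and 53.5 at 24 h (log2 change -3.94, SE 0.54, limma adjusted p = 0.000536). Its 24 h libraries were back in the range before cold. TCH2, another calmodulin-like gene first found by its response to touch, went from 967 and 1275 to 291 and 215 (log2 change -2.15, SE 0.21). The calcium sensor gene CBL1 went from 949 and 927 to 258 and 214 (log2 change -1.99, SE 0.16), and TCH4, a xyloglucan-modifying enzyme gene, from 2091 and 2602 to 675 and 276 (log2 change -2.43, SE 0.42). CML39 stood at 26.6 and 22.6 at 3 h and 3.23 and 0.906 at 24 h, about the floor. It was a member through its 3 h values alone. CAM2 (log2 change 0.20, SE 0.15, limma adjusted p = 0.298) and CML37 (log2 change 0.86, SE 0.47, limma adjusted p = 0.166) did not pass.

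Among the transcription factors, WRKY46, tied to drought and basal defence, fell from 117 and 131 to 65.7 and 75.2 (log2 change -0.81, SE 0.15, limma adjusted p = 0.00226). MYB44, a repressor in stress signalling, fell from 3276 and 2565 to 1602 and 1381 (log2 change -0.96, SE 0.23). Both had groups apart, WRKY46 kept its call when any 1 of the 4 libraries was left out, and that of MYB44 was lost without cbfs-1 3 h replicate 1 (-0.79) and cbfs-1 24 h replicate 2 (-0.86). ZAT10, a zinc finger repressor, was at 1170.3 and 1097 at 3 h and 288 and 260.0 at 24 h (log2 change -2.05, SE 0.68). The spread of this gene before cold, 373 and 112, was wide, and its call was lost without cbfs-1 3 h replicate 1 (-2.0), cbfs-1 3 h replicate 2 (-2.09), cbfs-1 24 h replicate 1 (-2.12) and cbfs-1 24 h replicate 2 (-1.97). DREB2A, a drought- and heat-responsive relative of the CBF factors, went from 784 and 560.1 to 310.4 and 174 (log2 change -1.51, SE 0.40), a call lost without cbfs-1 3 h replicate 1 (-1.27) and cbfs-1 24 h replicate 2 (-1.09). ZAT12, which responds to oxidative stress, stood at 411 and 522 at 3 h and 514 and 344 at 24 h with overlapping groups (log2 change -0.14, SE 0.27, limma adjusted p = 0.698). ZAT6 (log2 change 0.18, SE 0.40, limma adjusted p = 0.736) and WRKY33 (log2 change -0.62, SE 0.36, limma adjusted p = 0.193) likewise did not pass.

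The clock genes showed wide differences between the 3 h libraries. LHY, a morning MYB repressor, stood at 873 and 5092 in the 2 libraries at 3 h, at 2375 and 2088 at 24 h and at 1639 and 7514 before cold. Its partner CCA1 stood at 2392 and 6326 at 3 h and 6108 and 5038 at 24 h. For these genes both 24 h values lay between the 3 h values, and neither passed (limma adjusted p = 0.961 and 0.542). COR27, a cold- and clock-regulated repressor gene, stood at 1673 and 402 at 3 h and 2479.9 and 1627 at 24 h (log2 change 1.29, SE 0.81, limma adjusted p = 0.223). Of 13 morning genes 0 were called higher, 3 lower and 10 neither (median -0.67), a share lower near that of all members; the 3 falls became 0 without cbfs-1 3 h replicate 2 or cbfs-1 24 h replicate 2 and 1 without cbfs-1 24 h replicate 1. Of 12 afternoon and evening genes 1 was called higher, 3 lower and 8 neither; the 1 rise became 3 without cbfs-1 3 h replicate 1 and 0 without cbfs-1 3 h replicate 2, cbfs-1 24 h replicate 1 or cbfs-1 24 h replicate 2, and the 3 falls became 0 without cbfs-1 3 h replicate 1 or cbfs-1 24 h replicate 2 and 1 without cbfs-1 24 h replicate 1. The share lower in the evening list was also near the 21.6% of all members. The median of the evening list was 0.02, and its sign turned with TMM scaling (-0.0068) and quantile normalization (-0.0069). LUX, of the evening complex, went from 2342 and 1057 to 584 and 504 (log2 change -1.53, SE 0.41), and its call was lost without cbfs-1 3 h replicate 1 (-0.96), cbfs-1 24 h replicate 1 (-1.64) and cbfs-1 24 h replicate 2 (-1.43). PRR5, an afternoon repressor, went from 11265 and 7909 to 5089 and 3384 (log2 change -1.19, SE 0.38), lost without cbfs-1 3 h replicate 1 (-0.93) and cbfs-1 24 h replicate 2 (-0.89). Replicate 1 was the lower library of LHY and CCA1 and the higher of COR27, LUX and PRR5 at 3 h. Nothing used here gives the harvest times of the replicates, and their part in the spread was not tested.

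The evening element AAAATATCT was found before 6 of the 12 evening genes and before 2.92% of all members. The stretches before COR27 (chr5:17199911-17199969, minus strand) and the RNA-binding protein gene GRP7 (chr2:9266560-9266653, minus strand) are shown because they carry 2 and 3 copies, marked by capitals on either strand, in TAIR10.1.
COR27: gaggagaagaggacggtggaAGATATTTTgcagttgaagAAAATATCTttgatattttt
GRP7: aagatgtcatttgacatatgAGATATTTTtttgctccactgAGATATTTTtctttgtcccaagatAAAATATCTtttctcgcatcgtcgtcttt

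Genes of ribosome assembly were higher at 24 h throughout the list. All 15 members rose, with changes from 0.51 to 2.0 and a median of 1.32. The call for NUC2 was lost without cbfs-1 3 h replicate 1 (1.18) and cbfs-1 24 h replicate 1 (1.45). FIB2, a fibrillarin that methylates ribosomal RNA, went from 1509.8 and 2065 to 6874 and 7256 (log2 change 2.0, SE 0.19, limma adjusted p = 8.96e-05). NUC1, the nucleolin that opens rDNA chromatin for transcription, went from 7674 and 8754 to 23939 and 24232 (log2 change 1.55, SE 0.12). SWA1, needed for processing of the small subunit RNA, went from 531 and 618 to 1997 and 1904 (log2 change 1.77, SE 0.18). The lower of the 24 h libraries was above the higher of the 3 h libraries in each. PUM24 (log2 change 1.71, SE 0.28), NOP56 of the methylation complex (log2 change 1.51, SE 0.23) and NAP57, the pseudouridine synthase (log2 change 1.30, SE 0.21), followed. REIL1 had the smallest rise (log2 change 0.51, SE 0.08), and its paralog REIL2, which is needed for growth in the cold, rose by 1.15 (SE 0.21). At 0 h NUC1 stood at 7323 and 8164 and SWA1 at 426 and 519, below both of their 24 h values.

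The site II element TGGGCC, common before genes of ribosome assembly and ribosomal proteins in plants, was found before 7 of these 15 genes and before 17.1% of all members. The telo-box AAACCCTA was found before 3 of the 15 and before 4.28% of all members. The stretches of SWA1 (chr2:19638717-19638784, minus strand) and NOP56 (chr1:20987001-20987098, minus strand), from TAIR10.1, are shown for their 2 and 3 site II copies, marked by capitals on either strand.
SWA1: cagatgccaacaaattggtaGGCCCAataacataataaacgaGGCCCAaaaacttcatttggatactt
NOP56: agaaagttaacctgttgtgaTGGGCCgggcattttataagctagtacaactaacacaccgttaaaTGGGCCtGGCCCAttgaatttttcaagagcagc

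Of 10 RNA chaperone genes, 4 rose and 0 fell, with 6 not passing (median 0.43). GRP7, a clock-controlled glycine-rich RNA-binding protein, stood at 3938 and 3635 before cold, 25413 and 12336 at 3 h and 118298 and 109452 at 24 h, a 6.03-fold rise (log2 change 2.68, SE 0.40, limma adjusted p = 0.000835). The 3 h libraries of GRP7 differed from each other by more than those at 24 h, yet the groups were apart. Its close relative GRP8 stood at 11788 and 6090.0 at 3 h and 15733 and 14306 at 24 h and did not pass (log2 change 0.82, SE 0.40, limma adjusted p = 0.123). The organelle RNA-binding protein genes GR-RBP3 (log2 change 1.36, SE 0.12) and GR-RBP2 (log2 change 1.06, SE 0.09) rose. CSP3, a cold shock domain protein, was at 1091 and 1086 at 3 h and 1425 and 1333 at 24 h (log2 change 0.34, SE 0.14, limma adjusted p = 0.0695), and LOS4, an RNA helicase for mRNA export, at 1310.0 and 1372 at 3 h and 1475 and 1468 at 24 h (log2 change 0.13, SE 0.07, limma adjusted p = 0.141). Among 16 SR splicing factor genes, 5 were called higher, 5 lower and 6 neither, and the 5 falls became 3 without cbfs-1 3 h replicate 2, cbfs-1 24 h replicate 1 or cbfs-1 24 h replicate 2. SCL33 went from 386 and 421 to 175 and 169 (log2 change -1.22, SE 0.09) and RSZ21 from 420.3 and 486 to 191 and 212 (log2 change -1.16, SE 0.11). SCL30A moved the other way, from 854 and 1043 to 1966 and 2025 (log2 change 1.08, SE 0.19), as did RSZ22, the paralog of RSZ21 (log2 change 0.67, SE 0.08). The median of the SR list was 0.02 and turned to -0.0031 with TMM scaling. Its counts called stand against 21.8% higher and 21.6% lower over all members. Gene counts do not separate the splice forms of these genes.

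Of 17 sugar and osmolyte genes, 6 were called higher, 5 lower and 6 neither (median 0.27), against 21.8% higher and 21.6% lower over all members. The class II trehalose phosphate synthase gene TPS8 went from 1183 and 1837 to 130.4 and 188 (log2 change -3.23, SE 0.27, limma adjusted p = 4.9e-05) and TPS11, of the same class, from 1549 and 1919.7 to 183 and 189 (log2 change -3.20, SE 0.28). SUS4, a sucrose synthase, went from 1190.0 and 1059.8 to 136 and 129 (log2 change -3.08, SE 0.26). The isoform SUS1 moved the other way, from 1879 and 1651 to 3857 and 3074 (log2 change 0.97, SE 0.21). Of the listed sucrose synthesis genes, SPS2F stood at 446 and 570.4 at 3 h and 1415 and 1181 at 24 h (log2 change 1.36, SE 0.25). SPS1F was higher by 0.85 (SE 0.14). Of the galactinol synthases, GOLS4 rose (log2 change 1.16, SE 0.21), GOLS2 fell (log2 change -1.76, SE 0.40) and GOLS1 did not pass (log2 change 0.27, SE 0.22, limma adjusted p = 0.35). The GOLS2 call was lost without cbfs-1 24 h replicate 1 (-1.57). The proline synthesis genes P5CS1 (log2 change -0.56, SE 0.32, limma adjusted p = 0.185) and P5CS2 (log2 change 0.73, SE 0.34, limma adjusted p = 0.115) did not pass.

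Of 13 starch breakdown genes, 3 were called higher, 0 lower and 10 neither (median 0.56), a share higher near the 21.8% of all members. In other fits the 3 rises became 1 without cbfs-1 3 h replicate 2 or cbfs-1 24 h replicate 1, 6 in a fit of the 4 libraries alone and 5 in a fit of the 8 libraries at 3 h and 24 h. PWD, which phosphorylates starch to open it to enzymes, went from 1269.7 and 756 to 3876 and 3549.8 (log2 change 1.92, SE 0.27, limma adjusted p = 0.000582). SEX1, the kinase that acts before it, stood at 2776 and 1279 at 3 h and 6276 and 5887 at 24 h (log2 change 1.69, SE 0.49), a call lost without cbfs-1 3 h replicate 2 (1.13), cbfs-1 24 h replicate 1 (1.64) and cbfs-1 24 h replicate 2 (1.74). The debranching enzyme gene ISA3 stood at 529.5 and 224 at 3 h and 1505 and 1238 at 24 h (log2 change 1.98, SE 0.53), lost without cbfs-1 3 h replicate 2 (1.36) and cbfs-1 24 h replicate 1 (1.84). BAM3, the chloroplast beta-amylase, stood at 2225 and 5653 before cold, 27216 and 28706 at 3 h and 47913 and 35363 at 24 h, and did not pass (log2 change 0.56, SE 0.55, limma adjusted p = 0.439). As with the clock genes, the 3 h libraries differed widely for several of these genes, and replicate 1 was the higher for SEX1, PWD and ISA3.

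Transcripts of flavonoid synthesis genes were in part higher at 24 h. Of 17 members of the list, 8 were called higher, 0 lower and 9 neither (median 1.23). In other fits the 8 rises became 5 without cbfs-1 3 h replicate 1, cbfs-1 24 h replicate 1 or cbfs-1 24 h replicate 2, and the 0 falls became 1 in a fit of the 4 libraries alone. TT4, the chalcone synthase at the head of the pathway, went from 4159 and 9299 to 25616 and 29089 (log2 change 2.13, SE 0.46, limma adjusted p = 0.00506), and TT5, the chalcone isomerase, from 514 and 1092 to 3524 and 3437 (log2 change 2.21, SE 0.48). PAP1, a MYB activator of anthocyanin genes, went from 36.4 and 49.97 to 249 and 202 (log2 change 2.37, SE 0.40). The anthocyanin glucosyltransferase gene UF3GT went from 52.2 and 80.1 to 213 and 219 (log2 change 1.73, SE 0.34). The groups of these 4 genes were apart. DFR, at 281 and 373 at 3 h and 324 and 379.6 at 24 h (log2 change 0.12, SE 0.23, limma adjusted p = 0.707), and LDOX, at 314 and 445 at 3 h and 442 and 485 at 24 h (log2 change 0.31, SE 0.30, limma adjusted p = 0.427), which act later in anthocyanin synthesis, did not pass, and their groups overlapped. FLS1, which makes flavonols, stood at 859 and 2349.6 at 3 h and 5588 and 5623 at 24 h (log2 change 1.98, SE 0.71), and its call was lost without cbfs-1 3 h replicate 1 (1.25), cbfs-1 24 h replicate 1 (1.98) and cbfs-1 24 h replicate 2 (1.97), and also with edgeR, DESeq2, quantile normalization and no filter.

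Of 7 photoprotection genes, 4 were called higher, 0 lower and 3 neither (median 0.21). The count rested on single libraries, as the 4 rises became 2 without cbfs-1 3 h replicate 1, cbfs-1 3 h replicate 2, cbfs-1 24 h replicate 2 or with quantile normalization and 1 without cbfs-1 24 h replicate 1. ELIP1 (AT3G22840), an early light-induced protein that binds free chlorophyll, stood at 674 and 1414 at 3 h and 11103 and 8987 at 24 h, 9.62-fold higher (log2 change 3.35, SE 0.50, limma adjusted p = 0.000792). ELIP2 stood at 439 and 1308 at 3 h and 4932 and 4003 at 24 h (log2 change 2.55, SE 0.64), lost without cbfs-1 3 h replicate 1 (1.76) and cbfs-1 24 h replicate 1 (2.40). In both genes replicate 2 was the higher library at 3 h and replicate 1 at 24 h. PSBS, a sensor of excess light, was nearly level, at 22223 and 25169 at 3 h and 22159 and 25432 at 24 h (log2 change 0.01, SE 0.15, limma adjusted p = 0.979; 95% interval -0.32 to 0.33). Of 16 antenna and Rubisco genes, 0 were called higher, 5 lower and 11 neither (median -0.42), and the 5 falls became 3 without cbfs-1 24 h replicate 1 and 8 with DESeq2. LHCB2.3 went from 23137 and 20979.7 to 6556 and 8151 (log2 change -1.59, SE 0.25) and LHCB4.2, a minor antenna gene, from 40986 and 35253 to 12931 and 16473 (log2 change -1.38, SE 0.23). RBCS1A, a Rubisco small subunit gene, stood at 240775 and 265505 at 3 h and 258258 and 278214 at 24 h (log2 change 0.08, SE 0.18, limma adjusted p = 0.732). Antenna and Rubisco genes have near-identical copies that may share reads. Their 5 falls among 16 stand against 21.6% lower over all members. Of the 6 leaf marker genes, 1 was called higher, 1 lower and 4 neither; in other fits the 1 fall became 0 with quantile normalization and 2 with DESeq2. Their summed level was 880388 to 891493 at 3 h and 827806 to 902461 at 24 h, of which the top gene alone held 307910 to 349144 and 369246 to 409341. The median value of the 6 was lower at 24 h, at 70178 and 77145 against 114920 and 120529 at 3 h. The shares of leaf markers called were near those of all members, 21.8% higher and 21.6% lower.

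The stretch before ELIP1 (chr3:8085710-8085755, minus strand, TAIR10.1) is shown for the G-box CACGTG, the element bound by light-signalling factors such as HY5, in capitals. It was found before 8% of all members, before 1 of the 7 photoprotection genes, which include ELIP1, and before 5 of the 17 flavonoid genes.
ELIP1: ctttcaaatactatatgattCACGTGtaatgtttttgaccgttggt

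Jasmonate genes were in large part lower at 24 h. Among the 16 jasmonate genes there were 10 falls and 0 rises, and 6 missed the threshold (median -0.94). MYC2, the central bHLH activator, went from 1103 and 1245 to 439.7 and 394 (log2 change -1.49, SE 0.10, limma adjusted p = 2.14e-05). The synthesis gene LOX3 went from 838 and 735 to 229.6 and 187 (log2 change -1.92, SE 0.21) and the repressor gene JAZ5 from 138 and 126 to 36.6 and 25.4 (log2 change -2.08, SE 0.34). VSP2, a marker of the wound response, went from 1117 and 811 to 329.8 and 261 (log2 change -1.69, SE 0.35), with groups apart as in the other genes named. LOX2, the chloroplast lipoxygenase, stood at 6846 and 5582 at 3 h and 6218 and 5755 at 24 h and did not pass (log2 change -0.05, SE 0.23, limma adjusted p = 0.885).

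Of 13 salicylate and defence genes, 5 were called higher, 2 lower and 6 neither (median 0.25), against 21.8% higher and 21.6% lower over all members. These counts moved with single libraries, as the 5 rises became 1 without cbfs-1 3 h replicate 1 or cbfs-1 24 h replicate 1 and 2 without cbfs-1 24 h replicate 2, and the 2 falls became 1 without cbfs-1 24 h replicate 2. PR5, a thaumatin-like defence protein, went from 518 and 431 to 1923 and 1551 (log2 change 1.87, SE 0.22, limma adjusted p = 0.000245). PBS3, which acts in salicylate synthesis, stood at 162 and 167 at 3 h and 494 and 387 at 24 h (log2 change 1.40, SE 0.36), lost without cbfs-1 3 h replicate 1 (1.38) and cbfs-1 24 h replicate 1 (1.23). PR1, a marker of salicylate signalling, stood at 242 and 402 at 3 h and 824 and 752 at 24 h (log2 change 1.33, SE 0.47), and its call was lost without cbfs-1 3 h replicate 1 (0.97), cbfs-1 24 h replicate 1 (1.27) and cbfs-1 24 h replicate 2 (1.40), and also with edgeR, quantile normalization and no filter. The regulator EDS1 moved the other way, from 626 and 647 to 368 and 389 (log2 change -0.75, SE 0.11). ICS1, the main salicylate synthesis gene, stood at 242 and 299.8 at 3 h and 204 and 212 at 24 h and did not pass (log2 change -0.37, SE 0.15, limma adjusted p = 0.0698).

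Of 17 abscisic acid genes, 0 were called higher, 4 lower and 13 neither (median -0.25), a share lower near the 21.6% of all members. The 4 falls became 2 without cbfs-1 3 h replicate 1, cbfs-1 3 h replicate 2 or cbfs-1 24 h replicate 1. CYP707A3 fell as given above, and its paralog CYP707A1 was at 657 and 437 at 3 h and 833 and 624 at 24 h and did not pass (log2 change 0.43, SE 0.26, limma adjusted p = 0.215). The synthesis genes AAO3 (log2 change -0.64, SE 0.14), which fell, and NCED3 (log2 change -0.50, SE 0.31, limma adjusted p = 0.22), which did not pass, were both lower in each 24 h library. Among the 16 gibberellin genes there were 7 falls and 2 rises, and 7 missed the threshold (median -0.55); the 2 rises became 0 without cbfs-1 3 h replicate 1, cbfs-1 24 h replicate 1 or cbfs-1 24 h replicate 2. GA2OX1, which inactivates gibberellin, went from 162 and 161 to 23.7 and 16.3 (log2 change -2.98, SE 0.21), and the synthesis gene GA20OX1 from 34.4 and 53.7 to 6.47 and 10.9 (log2 change -2.23, SE 0.40). Of the DELLA repressor genes, RGL1 fell by 1.27 (SE 0.19) and RGA1 by 0.63 (SE 0.08). The receptor gene GID1B rose by 0.61 (SE 0.18), a call lost without cbfs-1 3 h replicate 1 (0.40), cbfs-1 24 h replicate 1 (0.62) and cbfs-1 24 h replicate 2 (0.60).

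Growth and water channel genes were in large part lower at 24 h. Of 16 cell wall growth genes, 1 was called higher, 10 lower and 5 neither (median -1.05). XTH15, a xyloglucan-remodelling enzyme gene, went from 226 and 207 to 26.9 and 19.9 (log2 change -3.17, SE 0.26, limma adjusted p = 4.52e-05), and the expansin gene EXPA8 from 466 and 482 to 41.0 and 92.4 (log2 change -2.92, SE 0.61). At 0 h EXPA8 stood at 2554 and 1157, above both cold times. EXPA10, another expansin gene, was the member that rose, from 623 and 629.8 to 1412 and 1401 (log2 change 1.17, SE 0.14). Of 12 aquaporin genes, 1 was called higher, 10 lower and 1 neither (median -1.27). TIP2;1, a water and ammonia channel of the vacuole membrane, went from 11605 and 12428 to 1439.9 and 1367, 8.56-fold lower (log2 change -3.10, SE 0.15). PIP2B went from 4368 and 6405 to 1121 and 1290.2 (log2 change -2.14, SE 0.24) and PIP1A from 6512 and 8879.9 to 1908 and 1721 (log2 change -2.07, SE 0.20). The exception was PIP2;5, which went from 395 and 383 to 729.6 and 821 (log2 change 0.99, SE 0.11).

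Root markers were in part lower at 24 h, with changes from -2.87 to 1.11 on the log2 scale. Of 11 root markers, 0 were called higher, 5 lower and 6 neither (median -0.43), and the 5 falls became 3 without cbfs-1 3 h replicate 1 or cbfs-1 24 h replicate 1. Their summed level was 4256 to 4823 at 3 h and 3367 to 3572 at 24 h. The root aquaporin gene TIP2;3 went from 287 and 419 to 49.6 and 43.5 (log2 change -2.87, SE 0.19), while SHR (log2 change -0.11, SE 0.10, limma adjusted p = 0.405) and SCR (log2 change -0.01, SE 0.19, limma adjusted p = 0.986), which pattern the root, did not pass. None of the 11 was at 0 in any library. The part of root tissue in these results was not tested. Of 5 floral and seed markers 0 were members, the highest value in the 4 libraries being 9.06.

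The sulfur-response genes LSU2, LSU3 and SDI1 were low at 3 h and rose by 24 h. Of 16 glucosinolate and low-sulfur genes, 7 were called higher, 2 lower and 7 neither (median 0.35), and the 7 rises became 4 without cbfs-1 24 h replicate 2, and the 2 falls became 1 without cbfs-1 3 h replicate 1 or cbfs-1 24 h replicate 1. LSU2, a gene of the low-sulfur response, stood at 767 and 675 before cold, 139.8 and 147 at 3 h and 759 and 612 at 24 h (log2 change 2.24, SE 0.15, limma adjusted p = 1.67e-05). The 24 h libraries were both above both 3 h libraries, and 1 of them lay between the 0 h libraries. LSU3 stood at 407 and 165, then 16.7 and 8.49 at 3 h and 125 and 71.6 at 24 h (log2 change 2.88, SE 0.62), and SDI1, another sulfur-starvation gene, at 346 and 364, 47.2 and 53.7 at 3 h and 219 and 125 at 24 h (log2 change 1.70, SE 0.23). At 24 h these genes were still below both of their 0 h values. MYB28, an activator of aliphatic glucosinolate synthesis, went from 811 and 1042 to 1792 and 1716 (log2 change 0.93, SE 0.18). CYP79B3, which converts tryptophan for indolic glucosinolates, fell from 1268 and 1274 to 611 and 614 (log2 change -1.05, SE 0.09).

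The heat shock, membrane lipid and cell division lists had shares called near or below those of all members, 21.8% higher and 21.6% lower. Of 12 heat shock genes, 1 was called higher, 3 lower and 8 neither (median -0.49), and the 1 rise became 0 without cbfs-1 3 h replicate 1, cbfs-1 24 h replicate 1 or cbfs-1 24 h replicate 2, and the 3 falls became 6 in a fit of the 4 libraries alone or in a fit of the 8 libraries at 3 h and 24 h. HSFA3 stood at 62.0 and 52.8 at 3 h and 10.8 and 12.7 at 24 h (log2 change -2.20, SE 0.28, limma adjusted p = 0.000362) and HSFA7A at 106 and 122 at 3 h and 39.9 and 43.5 at 24 h (log2 change -1.43, SE 0.20). Of 13 membrane lipid genes, 2 were called higher, 3 lower and 8 neither, and the 2 rises became 1 without cbfs-1 3 h replicate 1, cbfs-1 24 h replicate 2, with no filter, with TMM scaling or with quantile normalization and 0 without cbfs-1 24 h replicate 1. Their median was 0.06 and turned to -0.08 with quantile normalization. ADS1, an acyl-lipid desaturase gene, went from 610.2 and 371 to 76.5 and 70.7 (log2 change -2.68, SE 0.46), and its relative ADS2, which is needed for chilling tolerance, stood at 12892 and 6559.5 at 3 h and 10437 and 8095 at 24 h (log2 change -0.00, SE 0.43, limma adjusted p = 0.999). FAD2, the desaturase of the endoplasmic reticulum, went from 10047 and 10389 to 6405 and 6474 (log2 change -0.67, SE 0.08). Of 12 cell division genes, 2 were called higher, 2 lower and 8 neither (median -0.05), and the 2 rises became 1 without cbfs-1 3 h replicate 1, cbfs-1 3 h replicate 2, cbfs-1 24 h replicate 1, cbfs-1 24 h replicate 2, in a fit of the 4 libraries alone, in a fit of the 8 libraries at 3 h and 24 h or with DESeq2, and the 2 falls became 1 without cbfs-1 24 h replicate 1 or cbfs-1 24 h replicate 2. CYCD3;1, a cyclin of the entry into the cycle, fell from 493 and 501 to 302 and 348 (log2 change -0.62, SE 0.13). CYCB1;2, a mitotic cyclin, stood at 526 and 444 at 3 h and 479 and 476 at 24 h (log2 change -0.02, SE 0.18, limma adjusted p = 0.944).

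In the CBF family, cold-regulated effector, jasmonate, cell wall growth, ribosome assembly, RNA chaperone, sugar and aquaporin lists, neither count moved by over 1.5 times when any 1 of the 4 libraries was left out. The counts of every list stand against 21.8% higher and 21.6% lower over all members.

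**Figure D3:**
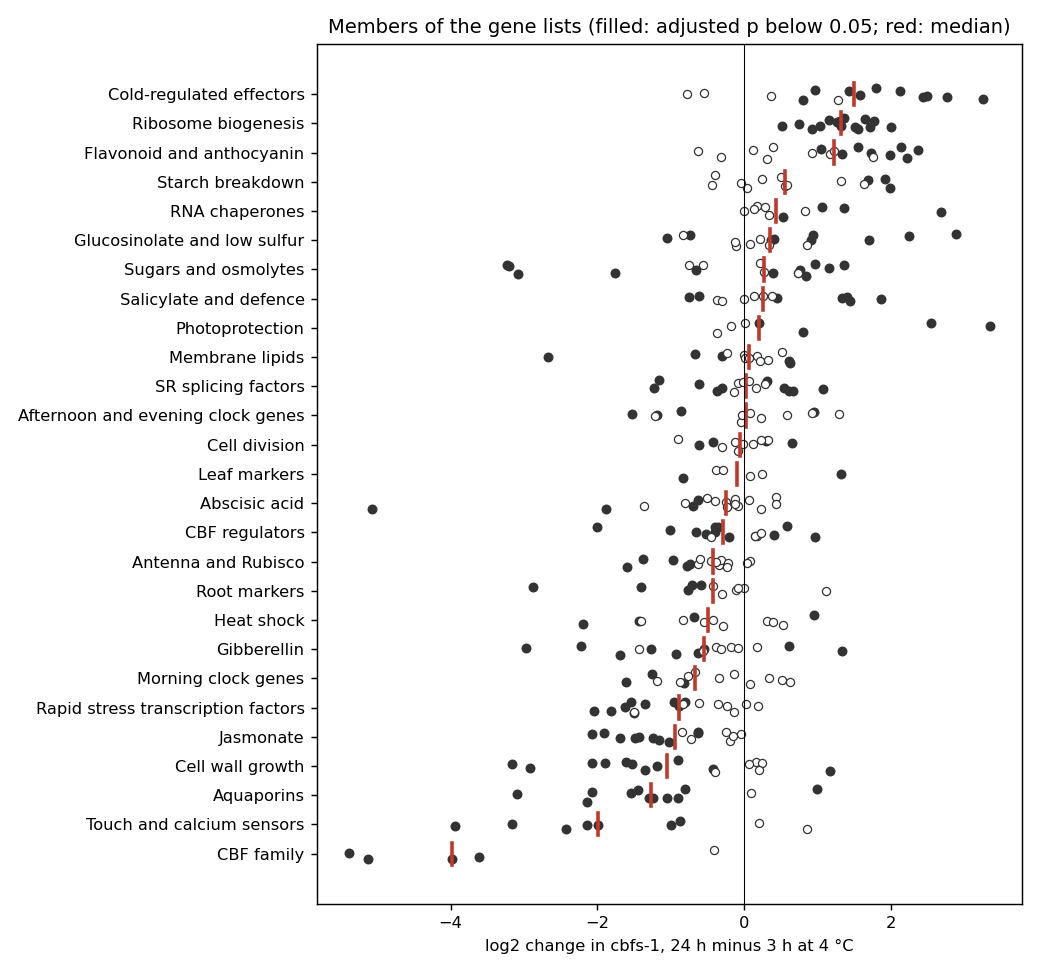
Log2 change between 3 h and 24 h at 4 °C in cbfs-1 (horizontal axis) for the members of each gene list (rows), 1 point per gene, filled where the limma adjusted p was below 0.05, with the list median as a red bar. All 15 ribosome assembly genes lie to the right of 0 and are filled, and the cold-regulated effectors have a median of 1.5; the points of CBF4 and DDF1, with 24 h values about the floor, depend on the 1 added before the log.

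The change of each member in cbfs-1 was then set beside that in wild type Col over the same hours, in libraries that the 2 genotypes do not share. Across the 20170 members the 2 changes correlated at r = 0.911, a description across genes, which are not independent replicates. Of the 8756 members called in cbfs-1, 8639 (98.7%) had the same sign in wild type, as did 78.5% of those not called. The difference of the changes was called for 1 member (0.00496%) with limma, while 824 members (4.09%) had an unadjusted p below 0.05. DESeq2 called 19 members higher and 31 lower, and edgeR called 2 higher and 0 lower. With a replicate block, limma called 11 higher and 18 lower, and with a block by time 62 and 104. The labels do not say that the replicate numbers pair the libraries. Among the differences below that did not pass, those of CBF3, CYP83B1 and SUS1 were called with either block. Those of COR15A and GOLS3 were called with the block by time. Without wild type 24 h replicate 1 limma called 4 higher, and without wild type 24 h replicate 2 it called 3 higher and 6 lower. The median distance from a difference to either end of its 95% interval was 0.51 on the log2 scale.

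The called member was CYP79B3 (AT2G22330). In wild type it stood at 1386 and 1399.7 at 3 h and 183 and 205 at 24 h, while cbfs-1 went from 1268 and 1274 to 611 and 614. At 24 h both mutant libraries were above both wild type libraries, and at 3 h both were below them. The change was 1.79 higher in cbfs-1 (95% interval 1.5 to 2.08, limma adjusted p = 0.00254). CYP83B1, the next enzyme of indolic glucosinolate synthesis, went from 4600.5 and 4007 to 1371 and 1691 in wild type, while cbfs-1 held 4477 and 3994 at 3 h and 3841 and 3884 at 24 h. Its difference was 1.36 (95% interval 0.96 to 1.77, limma adjusted p = 0.166) and did not pass, but was called with DESeq2 (1.36) and without wild type 24 h replicate 2 (1.52). Of the 16 genes of that list, 1 had a difference below 0, against 49.8% of all members.

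In wild type CBF3 went from 6133 and 7126 to 404 and 180.3, a log2 change of -4.61, against -0.41 in cbfs-1. The mutant was lower than wild type at 3 h and higher at 24 h in each library. As the lesion of the line is not given, whether the mutant's CBF reads came from intact genes was not tested. The difference of 4.19 (95% interval 3.05 to 5.34) had a limma adjusted p of 0.134. It was called by edgeR (4.09) and DESeq2 (4.09), and by limma without wild type 24 h replicate 1 (4.77) or without wild type 24 h replicate 2 (3.61). For CBF1 the changes were -5.13 in cbfs-1 and -5.21 in wild type, with a difference of 0.08 (95% interval -1.66 to 1.83). For CBF2 they were -3.61 and -3.99, with a difference of 0.38 (95% interval -2.62 to 3.38), an interval too wide to show that the genotypes acted alike.

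The 14 cold-regulated effectors had a median change of 1.5 in cbfs-1 and 3.27 in wild type, and all 14 differences were below 0, with 0 called. In wild type COR15A went from 3322 and 3448 to 91302 and 71501, a change of 4.58 against 2.49 in cbfs-1. Its difference of -2.08 (95% interval -3.28 to -0.89) had a limma adjusted p of 0.638, and it was called with DESeq2 (-2.09) and in a fit of the libraries of the contrast alone (-2.08). Wild type thus started higher at 3 h and ended higher at 24 h. In wild type GOLS3 went from 905 and 603 to 18836 and 6747 (difference -2.50, 95% interval -3.85 to -1.16, limma adjusted p = 0.534), which DESeq2 called (-2.65). COR15B, in contrast, changed by 3.25 in cbfs-1 and 3.30 in wild type (difference -0.05, 95% interval -1.22 to 1.12). The sucrose synthase gene SUS1, which went from 2288 and 1973 to 20179 and 11898 in wild type, had a difference of -1.90 (95% interval -2.57 to -1.23, limma adjusted p = 0.213), called with DESeq2 (-1.94) and without wild type 24 h replicate 2 (-2.28). In the ribosome assembly list the medians were 1.32 and 1.19, with 3 of 15 differences below 0 and 0 called. The aquaporins had 0 of 12 differences below 0, the jasmonate genes 1 of 16, the abscisic acid genes 15 of 17 and the morning clock genes 13 of 13, with 0 called in each. Of all members, 49.8% were below 0. Antenna and Rubisco genes had 1 of 16 below 0 and leaf markers 0 of 6, while SR splicing factors had 7 of 16 and membrane lipids 7 of 13. Genes of a list were measured in the same libraries, so their signs are not independent and were not tested as sets.

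**Figure D4:**
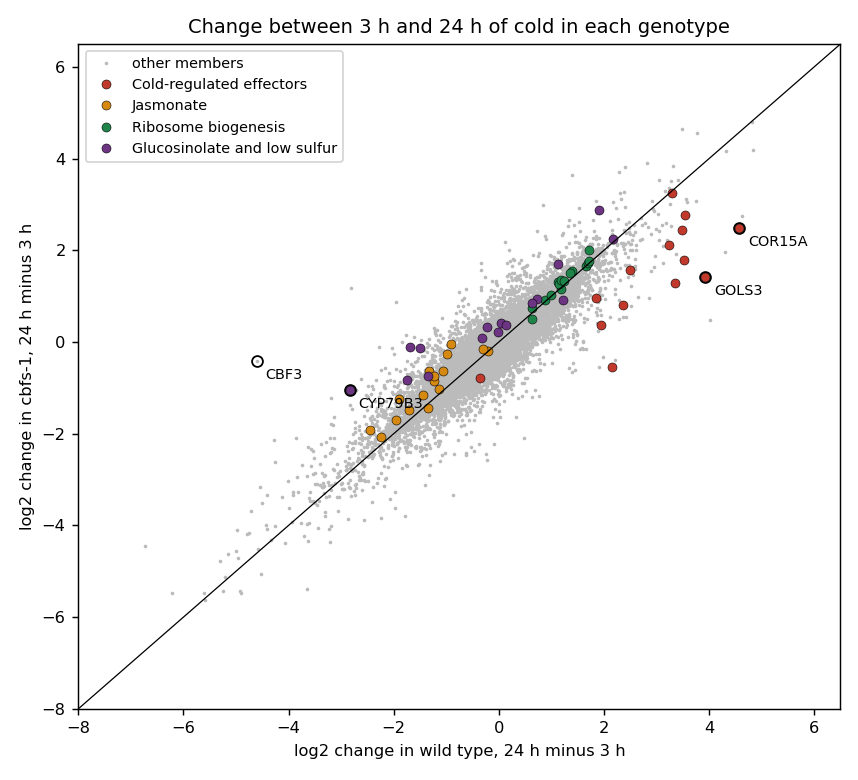
Log2 change between 3 h and 24 h at 4 °C in cbfs-1 (vertical axis) against that in wild type (horizontal axis), 1 point per member, with 4 gene lists coloured and the line of equal change drawn. The cold-regulated effectors lie below the line in all 14 cases, and CBF3, at -4.61 in wild type and -0.41 in cbfs-1, lies above it.

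Of the 20170 members, 20072 had a window of 300 bases before the gene start in TAIR10.1, in which 8 short motifs were sought on both strands. Site II stood before 23.2% of the members that rose, 16.9% of those not called and 11.6% of those that fell. The telo-box stood before 6.38%, 4.03% and 2.83% in the same order. The CRT/DRE core stood before 16.0%, 15.2% and 12.6%, and the evening element before 3.40%, 2.98% and 2.3%. The G-box went the other way, at 7.13%, 8.07% and 8.70%, as did the CAMTA core at 7.80%, 8.45% and 8.93%. Among calls of at least 2-fold, the CAMTA core stood before 9.22% of rises and 9.45% of falls, against 8.41% of all members. The evening element stood before 4.1% and 3.27% of these, against 2.92% of all members. Site II (19.9% and 6.97%) and the G-box (6.66% and 9.76%) kept their direction. The W-box core TTGAC was found before 50.4% of all members and the heat shock element core GAANNTTC before 11.3%. These are shares of windows with a match, and no test was made of them.

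**Figure D5:**
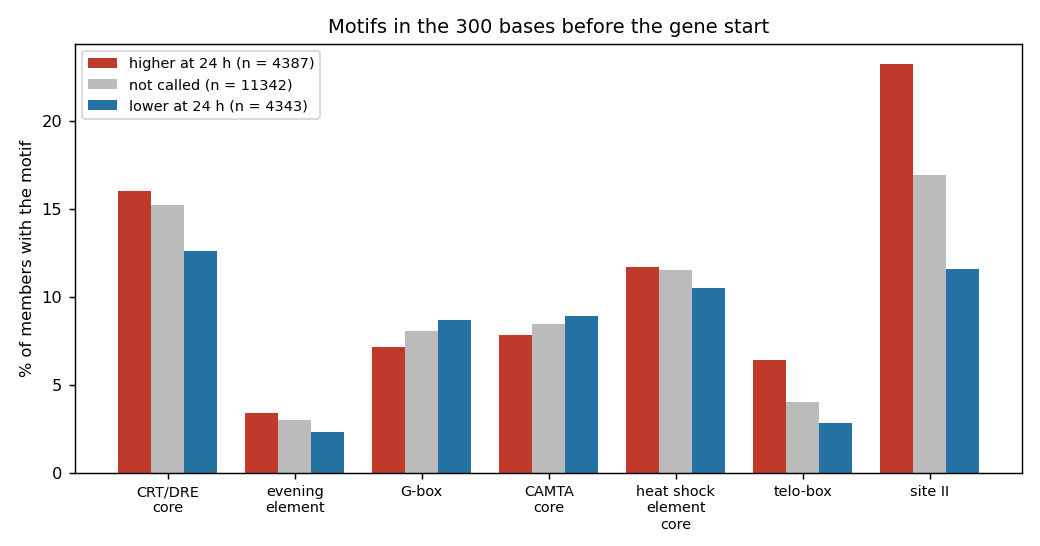
Share of members (per cent) with each of 7 motifs in the 300 bases before the gene start, in members called higher at 24 h (red), not called (grey) and called lower at 24 h (blue). Site II goes from 23.2% to 16.9% to 11.6% across these sets.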

How the data were processed

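RNA was sequenced from 12 libraries of whole seedlings in 6 groups of 2, which the titles of the samples give. The authors deposited 1 table of signal values, which are read counts per gene scaled by a DESeq2 size factor for each library, judging by the table's name and its values. The submitters' processing notes name HTSeq 0.6.0, DESeq2, Cufflinks 2.2.1, TopHat2 2.1.0 and the TAIR10 build. Nothing used here states their roles, the strandedness or how shared reads were treated, so near-identical, overlapping and antisense genes have uncertain counts. All values were whole multiples of 1 step per column (100% within 0.001 of a read), which gave back the reads used for edgeR and DESeq2 and size factors of 0.914 to 1.22. Counting error and floors take no account of PCR duplicates.

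As the values are not raw counts, limma 3.58.1 (lmFit, contrasts.fit, eBayes with a trend) in R 4.3.3 was fitted to log2(value + 1) of the 20666 genes that reached 10 in 2 or more of the 12 libraries, with 6 group means and 6 residual degrees of freedom. Of these, 20170 were members; 57 of the other 496 were called. The difference between genotypes was the change in cbfs-1 minus that in wild type. Alternatives were pseudocounts of 0.5 and 5, other filters and sets of libraries, TMM scaling, quantile normalization, edgeR 4.0.16, DESeq2 1.42.0, a replicate block and leaving out each library. The procedure was tested on simulated data.

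The members and the 28 gene lists were chosen with earlier results of these data known. Of 378 list genes, 369 were used and 9 were left out, because symbol and locus were not paired in the annotation or the gene was not in the table. Named genes are CBF1, CBF2, CBF3 and COR15A, the 10 largest called rises and falls whose higher group averaged 100 or more and whose groups do not overlap, the called genotype differences, up to 6 called members per list by size and members that did not pass. Other genes are named after their values were seen. Names and promoter stretches came from RefSeq's TAIR10.1 genome and annotation, by locus tag (24385 of 24616 loci found), read with Python 3.11.15, numpy 2.4.6 and pandas 2.3.3.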

Additional observations from a re-analysis of the deposited data

Results flagged for a closer look

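CYP79B3 stood out because its change between 3 h and 24 h of cold differed between the genotypes by the test of that difference itself. The log2 change was 1.79 higher in cbfs-1 than in wild type, with limma adjusted p = 0.0025, and both cbfs-1 libraries at 24 h were above both wild type libraries. The difference was called under every alternative that was run, leaving out each of the 8 libraries at 3 h and 24 h included, with values from 1.71 to 1.87.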

How the results depend on the processing

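Between 3 h and 24 h in cbfs-1, the counts of 4390 rises and 4366 falls moved by less than 1.5 times under other pseudocounts, filters, sets of libraries, scalings and count tests, and 88.5% to 100% of the calls were shared, 0 with the opposite sign. Leaving out 1 of the 4 libraries gave 2811 to 3416 rises and 2933 to 3239 falls, with 64.6% to 73.1% of the calls shared. In the difference between genotypes, the 1 higher and 0 lower members became 2 higher with edgeR, 19 higher and 31 lower with DESeq2, and 1 lower with the libraries of the contrast alone. Leaving out 1 library gave 1 to 4 higher and 0 to 6 lower. Same-numbered libraries of the 15 pairs of groups correlated in their deviations at 0.043 to 0.565. The values were 0.105 between cbfs-1 at 3 h and 24 h, and 0.486, 0.565 and 0.242 between the genotypes at 0 h, 3 h and 24 h. As the labels give the numbers no meaning and 6 of the 15 lay under 0.1, the numbers were not taken to pair the libraries across the design, although those of the same hour deviated together. With a replicate block there were 5261 rises and 5171 falls, and 11 higher and 18 lower genotype differences; with a block by time there were 5900 and 5836, and 62 and 104. The cause of these shifts was not tested. The CBF3 genotype difference (4.19) was called with either block. Fitted on the 4 libraries alone, CBF3, BAM3, CML37, COR414-TM1, CSP3, NCED3, P5CS1, P5CS2 and WRKY33 were called. Of 3625 pairs of a named gene and a setting, 190 lost the call, 49 gained it and 36 changed sign, all 36 of values that had not passed. Leaving out 1 library gave genotype differences of -0.71 to 0.88 for CBF1, -0.25 to 1.0 for CBF2 and -0.36 to 0.27 for COR15B. It gave changes of -0.49 to 0.49 for ADS2, -0.036 to 0.44 for CAM2, -0.19 to 1.21 for CCA1, -0.14 to 0.10 for CYCB1;2, -0.089 to 0.32 for DFR, -1.19 to 1.35 for LHY, -0.19 to 0.10 for LOX2, -0.094 to 0.10 for PSBS, -0.18 to 0.17 for SCR, -0.43 to 0.15 for ZAT12 and -0.038 to 0.40 for ZAT6. The CBF1 difference was -0.0072 with quantile normalization, -0.020 with edgeR and -0.0093 with DESeq2, and the LHY change -0.043, -0.43 and -0.42. PSBS changed by -0.021 with TMM scaling and -0.0013 with edgeR, and SCR by 0.0035 with DESeq2. With 2 libraries per group, the smallest change called was 0.19 on the log2 scale.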

Other observations

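Gene classes by product name, chosen after their values were seen and described without a test, filled in parts of the change between 3 h and 24 h in cbfs-1. Of 266 genes with the product name of a ribosomal protein, 175 rose and 7 fell, with a median log2 change of 0.44 (0.35 in wild type). The names sought do not limit this class to ribosomes of the cytosol. Pentatricopeptide repeat genes, whose products process organelle RNA, had 127 rises and 6 falls among 240. DEAD-box RNA helicase genes had 21 rises and 1 fall among 27. Genes with chaperonin or translocase in the product name had 40 rises and 3 falls among 62. Proteasome subunit genes had 24 rises and 0 falls among 34. These compare with 21.8% higher and 21.6% lower over all members.

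Other classes held more falls than rises. Histone genes had 13 falls and 0 rises among 45, cytochrome P450 genes 58 falls and 25 rises among 169, and AP2/ERF-type genes 30 falls and 9 rises among 77. SAUR auxin-response genes had 12 falls and 3 rises among 50, a share lower near the 21.6% of all members. Of 69 members on the chloroplast genome, 20 fell and 0 rose, with a median log2 change of -0.58 in cbfs-1 and -0.11 in wild type. Of 12 small nucleolar RNA genes, 6 rose and 0 fell.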
